A study of Mus musculus with 29 samples.

Results

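Pax5 and 8 other transcription factors of the B lineage, Ebf1, Foxo1, Pou2af1, Pou2f1, Pou2f2, Lef1, Bach2 and Bcl6, were examined by RNA-seq in pro-B cells sorted from bone marrow. They were found by their symbols, and all 9 were present among the 24732 entries of the tables made on mm9 and among the 25588 entries of the tables made on mm10. The mm9 tables hold 3 libraries of wild-type and 2 libraries of Pax5(-/-) pro-B cells, and the mm10 tables hold 3 libraries of Pax5(+/+) cells that carry Meox2-cre. All mice were on the C57BL/6 background and all cells were sorted directly from bone marrow without culture. The Pax5(-/-) cells came from mice that lack Pax5 in the germline and hence in every cell, while Meox2-cre is expressed from the Meox2 locus and deletes broadly in the embryo. The Meox2-cre mice were 3 weeks old and their cells were pooled, and the labels give no age for the other mice. Their labels read Pax5(+/+), whereas the study's own list of libraries calls these mice Pax5(+/-), and the labels were followed. Wild-type and Meox2-cre cells fall under the study's gate for pro-B cells, which includes B220+, Kit+, CD2-, IgM- and IgD-, whereas its gate for Pax5-deficient progenitors includes B220+, Kit+ and Ly6D+, so that genotype and gate cannot be told apart in any comparison below. The labels do not say which libraries share a mouse or a sort, so the p-values measure the spread between these libraries, which may in part be technical.

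The B lineage is set up by a small circuit of transcription factors. E2A, Ebf1 and Foxo1 act first in lymphoid progenitors and switch on early B cell genes, Ebf1 then activates Pax5, and Pax5 commits the cells by activating B cell genes and repressing genes of other lineages. Pax5 and Ebf1 also keep each other expressed. Lef1 and Bach2 are known as direct targets that Pax5 activates, Pou2f1 (Oct-1) and Pou2f2 (Oct-2) bind the octamer element of immunoglobulin promoters together with their coactivator Pou2af1 (OBF-1), and Bcl6 is a repressor best known from germinal centre B cells and also used in pre-B cells.

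In Pax5(-/-) cells, 8 of the 9 factors were lower than in wild-type cells and 1, Pou2f2, was higher. Lef1 was lower by 82.7-fold, Pax5 itself by 8.99-fold, Bach2 by 5.14-fold and Bcl6 by 3.12-fold. Ebf1, Foxo1, Pou2af1 and Pou2f1 were lower by 2.79-, 2.20-, 2.00- and 1.55-fold, respectively, and Pou2f2 was higher by 1.42-fold. All 9 differences had an adjusted p-value below 0.05 from limma, a linear model fitted to all genes on log2(TPM + 0.5), in which TPM is an abundance per gene length that sums to 1000000 in each library. Among all 12066 entries tested, 21.5% were lower and 15.6% were higher by the same rule. The median log2 fold change was -1.48 over the 9 factors and -0.12 over all entries tested. Both the count and the median of the factors include Pax5, which is the deleted gene. Because the 9 factors were chosen with earlier results of these data known, their shares are descriptions only. In bulk RNA, fewer cells that express a gene and less RNA per cell cannot be told apart.

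**Figure D1:**
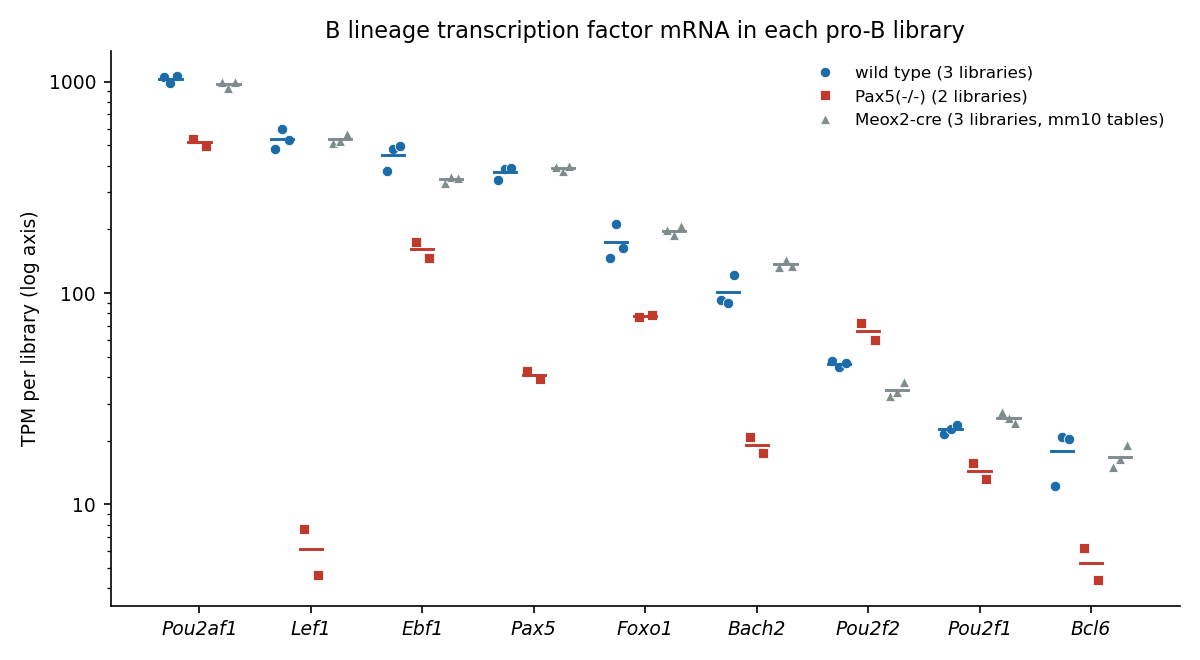
TPM (log axis) of each factor in every library, with wild-type libraries as circles, Pax5(-/-) libraries as squares and Meox2-cre libraries, from the separately made mm10 tables, as triangles, and with horizontal lines for the group means. The 2 Pax5(-/-) libraries lie below the 3 wild-type libraries for every factor except Pou2f2, and the gap is widest for Lef1.

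To show the DNA that precedes these genes, the 250 bases before the annotated transcription starts were taken from RefSeq (GRCm38.p6), which lists 16 starts for the 9 genes. The table matched all 9 symbols. Both strands were searched for short sequences that the factors themselves recognise: the Lef1 and Tcf core TCAAAG, the Ebf1 palindrome core CCCNNGGG, the Bcl6 core TTCCTNGAA, the octamer ATGCAAAT, the Foxo sequence GTAAACA, the Bach2 sequence TGAGTCA and the Pax5 core GCGTGAC, in which N is any base. These spellings do not overlap one another in the matches found. The windows of the 4 genes called lower by more than 3-fold and of Foxo1, which holds the only Ebf1 match, are printed here from 5′ to 3′ on the strand of the gene, with matches in capitals. For Lef1 and Bcl6, which have 4 and 2 annotated starts, the window with matches is shown, and it precedes the most downstream start in both.
Pax5, chr4:44710695-44710944, minus strand: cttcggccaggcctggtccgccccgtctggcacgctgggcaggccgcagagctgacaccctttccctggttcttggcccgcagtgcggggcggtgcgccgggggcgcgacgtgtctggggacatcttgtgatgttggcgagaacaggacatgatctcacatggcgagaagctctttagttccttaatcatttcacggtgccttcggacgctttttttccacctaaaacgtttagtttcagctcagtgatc
Lef1, chr3:131156044-131156293, plus strand: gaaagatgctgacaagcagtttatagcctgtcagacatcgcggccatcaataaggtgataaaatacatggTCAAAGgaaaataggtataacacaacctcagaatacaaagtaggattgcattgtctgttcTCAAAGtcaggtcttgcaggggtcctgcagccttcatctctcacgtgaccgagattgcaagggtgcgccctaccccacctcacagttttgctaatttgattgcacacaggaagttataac
Bach2, chr4:32417185-32417434, plus strand: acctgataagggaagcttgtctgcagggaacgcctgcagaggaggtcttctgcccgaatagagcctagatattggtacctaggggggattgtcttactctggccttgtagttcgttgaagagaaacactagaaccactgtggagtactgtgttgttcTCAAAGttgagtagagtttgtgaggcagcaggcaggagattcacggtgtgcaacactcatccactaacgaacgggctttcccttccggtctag
Bcl6, chr16:23981284-23981533, minus strand: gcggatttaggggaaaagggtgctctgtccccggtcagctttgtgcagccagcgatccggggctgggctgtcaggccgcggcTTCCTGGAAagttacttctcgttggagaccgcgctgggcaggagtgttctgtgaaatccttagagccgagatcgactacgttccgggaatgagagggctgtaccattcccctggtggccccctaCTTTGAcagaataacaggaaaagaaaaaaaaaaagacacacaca
Foxo1, chr3:52268087-52268336, plus strand: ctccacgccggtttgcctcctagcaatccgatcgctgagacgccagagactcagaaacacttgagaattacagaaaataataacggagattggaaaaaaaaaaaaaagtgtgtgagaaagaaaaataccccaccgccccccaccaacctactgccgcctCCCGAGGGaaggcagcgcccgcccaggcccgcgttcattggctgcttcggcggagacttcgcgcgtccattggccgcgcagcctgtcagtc

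The Lef1 and Tcf core was present before a start of 4 of the 9 genes, namely Lef1, Bach2, Bcl6 and Pou2f1, and the window of Lef1 held 2 copies, which begin 180 and 120 bases before the start. By window, 4 of 16 held it, and 13.8% of the 32851 mouse promoter windows of this length held it too. The Ebf1 core was found before Foxo1 alone, as CCCGAGGG beginning 91 bases before the start, and 11.8% of all windows held such a core. The Bcl6 core was found before the downstream start of Bcl6 itself, as TTCCTGGAA beginning 168 bases before the start, against 1.31% of all windows. The octamer, the Foxo sequence, the Bach2 sequence and the Pax5 core were found in 1.6%, 3.17%, 4.46% and 1.78% of all windows, and none of the 16 windows of the 9 genes held one of these letter strings. Such matches are descriptions of letters in a window and are not binding sites that were measured.

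The libraries were first checked against their labels. Kit, which both gates select on, was measured at 23.1 to 35.3 TPM in wild-type, 44.9 to 52.0 TPM in Meox2-cre and 34.6 to 39.8 TPM in Pax5(-/-) libraries. Ly6d, which is part of the gate of the Pax5-deficient progenitors, was measured at 190 to 270 TPM in wild-type and 2258 to 3033 TPM in Pax5(-/-) libraries. The pro-B gate excludes CD2, IgM and IgD. Cd2 was measured at 1.11 to 2.14 TPM in wild-type, 1.35 to 4.04 TPM in Meox2-cre and 0 to 0.215 TPM in Pax5(-/-) libraries. In the same order, Ighm was high at 3049 to 3504, 4267 to 4535 and 2415 to 2596 TPM. Ighd was measured at 31.5 to 66.3, 37.5 to 40.3 and 21.0 to 23.0 TPM. The gates select on surface protein, so these RNA levels cannot show whether they held. The deeper of the Pax5(-/-) libraries had 1.54 times and the shallower 0.855 times the depth of the first wild-type library, as judged from steps between low values, and the depth in reads is unknown. Of the marker lists for other cells, the summed TPM of 8 myeloid genes was 45.9 to 252 in wild-type, 55.4 to 83.7 in Pax5(-/-) and 440 to 1217 in Meox2-cre libraries. The sum of 6 T cell genes was 8.77 to 13.2 in wild-type and 7.26 to 9.77 in Pax5(-/-) libraries, and that of 4 NK cell genes was 4.69 to 14.7 and 22.3 to 29.2. The sums of 4 erythroid genes were 19.4 to 57.5 and 4.55 to 9.78, those of 5 genes of mature B and plasma cells 63.2 to 98.1 and 27.8 to 31.1, those of 3 genes of plasmacytoid dendritic cells 83.1 to 124 and 122 to 173, and those of 3 stromal genes 13.2 to 35.7 and 6.38 to 27.3, in wild-type and Pax5(-/-) libraries respectively. Bst2 held nearly all of the plasmacytoid dendritic sum, at 83.0 to 123 TPM in wild-type and 120 to 163 TPM in Pax5(-/-) libraries. Siglech was measured at 0.106 to 1.12 and 1.79 to 9.06 TPM and Ccr9 at 0 to 0.195 and 0.101 to 0.896 TPM. Within the T cell, myeloid and NK cell lists single genes moved in opposite directions. Of the T cell genes, Cd4 was measured at 0.368 to 0.712 TPM in wild-type and 3.97 to 5.88 TPM in Pax5(-/-) libraries and Cd5 at 7.08 to 12.2 and 2.93 to 3.01 TPM, while Cd3e was listed at 0 in both Pax5(-/-) libraries. Of the myeloid genes, Mpo was measured at 11.1 to 34.5 and 37.8 to 42.1 TPM and Lyz2 at 16.2 to 57.5 and 13.3 to 14.3 TPM, while Cd14 was listed at 0 in both Pax5(-/-) libraries. Of the NK cell genes, Nkg7 was measured at 1.71 to 5.35 and 17.9 to 22.7 TPM and Klrb1c at 2.02 to 8.78 and 1.07 to 1.25 TPM, while Ncr1 was listed at 0 in both Pax5(-/-) libraries. The part of such cells in the changes described here was not tested.

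Pax5, the paired domain factor of B cell commitment, is transcribed from the minus strand of mm9 chromosome 4 between 44544017 and 44724318. Its level was 342, 386 and 391 TPM in the wild-type libraries and 43.0 and 39.1 TPM in the Pax5(-/-) libraries. The genotypes did not overlap, and the Pax5(-/-) mean was 11% of the wild-type mean. The log2 fold change was -3.17 (SE 0.11, 95% CI -3.42 to -2.92, adjusted p = 3.1e-06 from limma). The TPM of a gene sums reads over all its exons and does not show which exons the remaining reads came from, so this value checks the labels and not the allele itself. RefSeq places the long noncoding gene 5730488B01Rik within Pax5, and its entry, chosen after its values were seen, was measured at 9.698, 13.8 and 11.01 TPM in wild-type and 56.7 and 51.4 TPM in Pax5(-/-) libraries. This entry rose where Pax5 fell (log2 fold change 2.20, SE 0.18, adjusted p = 1.2e-04 from limma), and its part in the Pax5 value was not tested.

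Ebf1, the early B cell factor that acts upstream of Pax5 and is also sustained by it, lies on the plus strand of chromosome 11 between 44430819 and 44821593. It was measured at 378, 480 and 497 TPM in wild-type and at 175 and 147 TPM in Pax5(-/-) libraries. Both Pax5(-/-) libraries thus lay below the lowest wild-type library, by at least 2.16-fold, yet Ebf1 was still a strongly expressed gene in them. In log2 terms the change was -1.48 (SE 0.15, 95% CI -1.82 to -1.14, adjusted p = 3.0e-04 from limma). Among the 9 factors Ebf1 was the third in wild-type and the second in Pax5(-/-) cells by mean TPM.

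Foxo1, the forkhead factor that activates Rag genes and Il7r in early B cells, lies on the plus strand of chromosome 3 between 52072259 and 52154031. Its level was 146, 212 and 163 TPM in wild-type and 77.3 and 78.4 TPM in Pax5(-/-) libraries. The wild-type libraries differed more from each other than the Pax5(-/-) libraries did, and the groups did not overlap. This gave a log2 fold change of -1.14 (SE 0.16, 95% CI -1.5 to -0.77, adjusted p = 0.0015 from limma).

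Lef1, the HMG box factor that acts with beta-catenin in Wnt signalling, changed more than any other of the 9 factors. It lies on the plus strand of chromosome 3 between 130813389 and 130927274. Its level was 481, 595 and 530 TPM in wild-type and 7.63 and 4.62 TPM in Pax5(-/-) libraries. The lowest wild-type library was thus 63.1 times the highest Pax5(-/-) library, and the Pax5(-/-) mean was 1.15% of the wild-type mean. On the log2 scale it changed by -6.37 (SE 0.20, 95% CI -6.83 to -5.91, adjusted p = 2.6e-06 from limma), the sixth largest fall among the 12066 entries tested. Lef1 fell further than Pax5 itself: Lef1 was 1.35 to 1.54 times as abundant as Pax5 in the wild-type libraries but 0.178 and 0.118 times as abundant in the Pax5(-/-) ones.

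Bach2, a repressor that forms dimers with small Maf proteins, lies on the plus strand of chromosome 4 between 32325779 and 32673083. It was measured at 92.4, 89.5 and 121 TPM in wild-type and at 20.9 and 17.4 TPM in Pax5(-/-) libraries. The groups were separated by at least 4.29-fold. The log2 fold change was -2.36 (SE 0.16, 95% CI -2.75 to -1.98, adjusted p = 6.3e-05 from limma). The name of its entry is marked OVL, which was taken to mean an overlapping gene, and the counting as described did not use strand, so reads of a gene on the opposite strand cannot be told apart. The noncoding neighbour that RefSeq places there, Bach2os, did not exceed 0.523 TPM in any of the 5 libraries.

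Bcl6, a zinc finger repressor, had the lowest mean of the 9 factors in every group. It lies on the minus strand of chromosome 16 between 23965138 and 23988938. The values were 12.2, 20.8 and 20.4 TPM in wild-type and 6.22 and 4.37 TPM in Pax5(-/-) libraries. The groups did not overlap, but the first wild-type library lay well below the other two. This amounted to a log2 fold change of -1.64 (SE 0.28, 95% CI -2.28 to -1.0, adjusted p = 0.0035 from limma), and without the first Pax5(-/-) library it was -1.87 and without the second -1.41, with an adjusted p-value of 0.035 and 0.076, respectively.

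Of the octamer factors, Pou2f2 rose while Pou2f1 and the coactivator fell. Pou2af1, the coactivator, lies on the plus strand of chromosome 9 between 51021795 and 51048184 and was the most abundant of the 9 factors in every library. The coactivator was found at 1054, 981 and 1064 TPM in wild-type and at 534 and 498 TPM in Pax5(-/-) libraries. Its level in the Pax5(-/-) cells was 49.9% of that in wild-type cells, with a log2 fold change of -1.0 (SE 0.10, 95% CI -1.23 to -0.78, adjusted p = 2.8e-04 from limma). Its share in the summed TPM of all 9 factors was 34.7 to 40.9% in wild-type and 56.1 and 57.7% in Pax5(-/-) libraries.

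Pou2f2 (Oct-2), the octamer factor enriched in B cells, lies on the minus strand of chromosome 7 between 25877472 and 25917507. It was measured at 47.9, 44.5 and 46.5 TPM in wild-type and at 72.2 and 60.3 TPM in Pax5(-/-) libraries. It was the only one of the 9 factors with both Pax5(-/-) libraries above every wild-type library. The resulting log2 fold change was 0.51 (SE 0.12, 95% CI 0.22 to 0.79, adjusted p = 0.015 from limma). Without the first Pax5(-/-) library it was 0.38 with an adjusted p-value of 0.15, and without the second it was 0.63 with an adjusted p-value of 0.053, so the call needs both libraries. The name of its entry carries the OVL mark too, and the noncoding genes that RefSeq places within Pou2f2 did not exceed 0.578 TPM in any of the 5 libraries.

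Pou2f1 (Oct-1), the widely expressed octamer factor, lies on the minus strand of chromosome 1 between 167795285 and 167932809. It was measured at 21.6, 22.7 and 23.7 TPM in wild-type and at 15.7 and 13.2 TPM in Pax5(-/-) libraries, without overlap. Its log2 fold change was -0.63 (SE 0.15, 95% CI -0.98 to -0.29, adjusted p = 0.013 from limma). Without the first Pax5(-/-) library it was -0.76 with an adjusted p-value of 0.065, and without the second it was -0.51 with an adjusted p-value of 0.16. Cd247, which encodes the zeta chain of the T cell receptor complex, shares exon positions with Pou2f1 on the opposite strand. Cd247 was measured at 0.248, 0.917 and 0.372 TPM in wild-type and at 10.6 and 12.3 TPM in Pax5(-/-) libraries, and its part in the Pou2f1 value was not tested.

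With these opposite changes, the TPM ratio of both octamer factors was higher in the Pax5(-/-) libraries. The ratio of Pou2f2 to Pou2f1 TPM was 2.22, 1.96 and 1.97 in the wild-type libraries, against 4.59 and 4.57 without Pax5. The mean ratio was 2.05 ± 0.148 (SD, n = 3) in wild-type and 4.58 ± 0.0127 (SD, n = 2) in Pax5(-/-) cells, a difference of 2.53. The exact permutation test over the 5 libraries gave a two-sided p-value of 0.1, which is the smallest that the 10 placements of 3 and 2 libraries allow, and the same holds for each single factor. In the Meox2-cre libraries the ratio was 1.19, 1.33 and 1.56. The mm10 entries of both factors lack the OVL mark that their mm9 entries carry, and its part in the ratios was not tested.

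**Figure D2:**
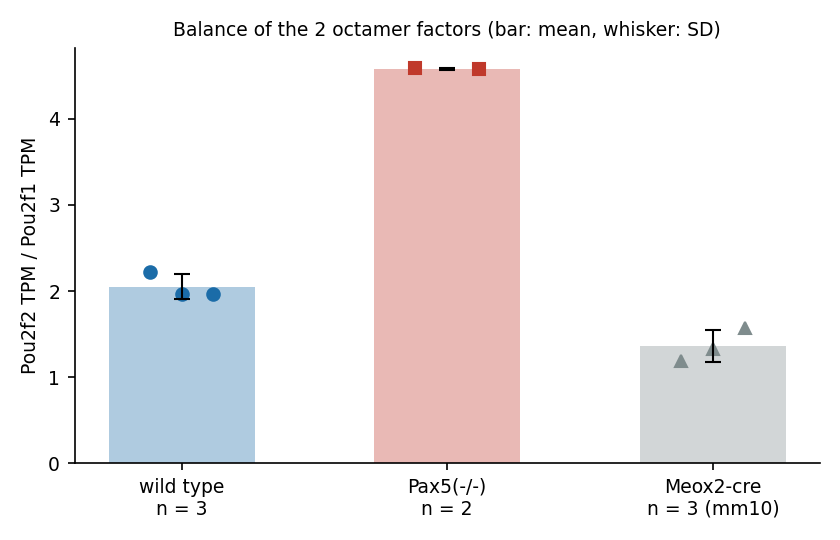
Ratio of Pou2f2 TPM to Pou2f1 TPM in each library (points), with bars from 0 to the group mean and whiskers for the SD. Both Pax5(-/-) libraries, at 4.59 and 4.57, lie above the wild-type libraries at 1.96 to 2.22 and the Meox2-cre libraries, which come from other tables, at 1.19 to 1.56.

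Across the 9 factors, both Pax5(-/-) libraries lay below every wild-type library for 8, against 37.4% of all entries tested, and above every wild-type library for 1, against 26.1%. The call used in the study's methods requires more than 3-fold change, over 5 TPM on average in either genotype and an adjusted p-value under 0.05, with immunoglobulin and T cell receptor entries left out. The study applied this call to a model of read counts, whereas here it was applied to the limma fit on TPM. By this call 4 of the 9 factors were lower, namely Lef1, Pax5, Bach2 and Bcl6, against 3.15% of all entries tested. Bcl6 stood just past the 3-fold limit and Ebf1, at 2.79-fold, just short of it. Without the first wild-type library 5 factors were called, and without the second or the third 3 were. After rescaling by median ratios, after quantile normalization or with 1 instead of 0.5 added to the TPM, 3 factors were called. The limma treat test, which tests against the 3-fold limit itself, also called 3. Leaving out the first Pax5(-/-) library took the change of Ebf1 past 3-fold, and leaving out the second took that of Bcl6 below it. Pax5 was the deleted gene, so that its own call is a check on the labels.

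**Figure D3:**
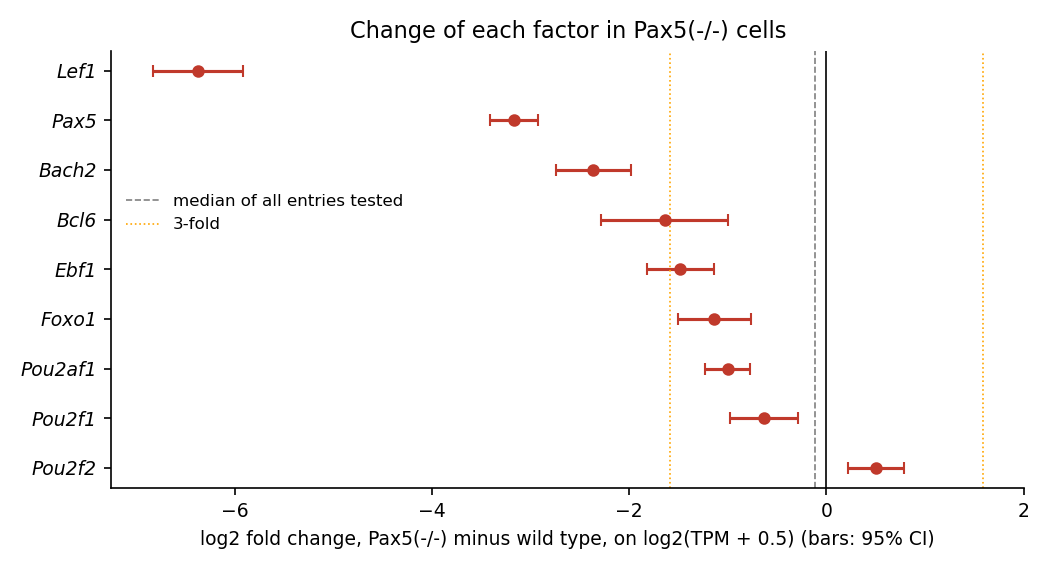
Log2 fold change of each factor on log2(TPM + 0.5), Pax5(-/-) minus wild type, with 95% confidence intervals as bars. The interval of Lef1 lies below that of every other factor, the intervals of Bcl6 and Ebf1 span the dotted 3-fold line, and the interval of Pou2f2 alone lies above 0, while the dashed line marks the median of all entries at -0.12.

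The median over all entries was -0.12 in the TPM as deposited and -0.003 after rescaling by median ratios. Rescaled in this way, the log2 fold change was -0.52 for Pou2f1, 0.62 for Pou2f2 and -1.53 for Bcl6, and all 9 factors kept their direction and an adjusted p-value below 0.05 from limma. In rank among the 12066 entries tested, Lef1 had the 6th, Pax5 the 112th, Bach2 the 264th, Bcl6 the 603rd and Ebf1 the 718th largest fall. Foxo1, Pou2af1 and Pou2f1 ranked 1055, 1267 and 2185 among the falls, and Pou2f2 ranked 2002 among the rises.

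**Figure D4:**
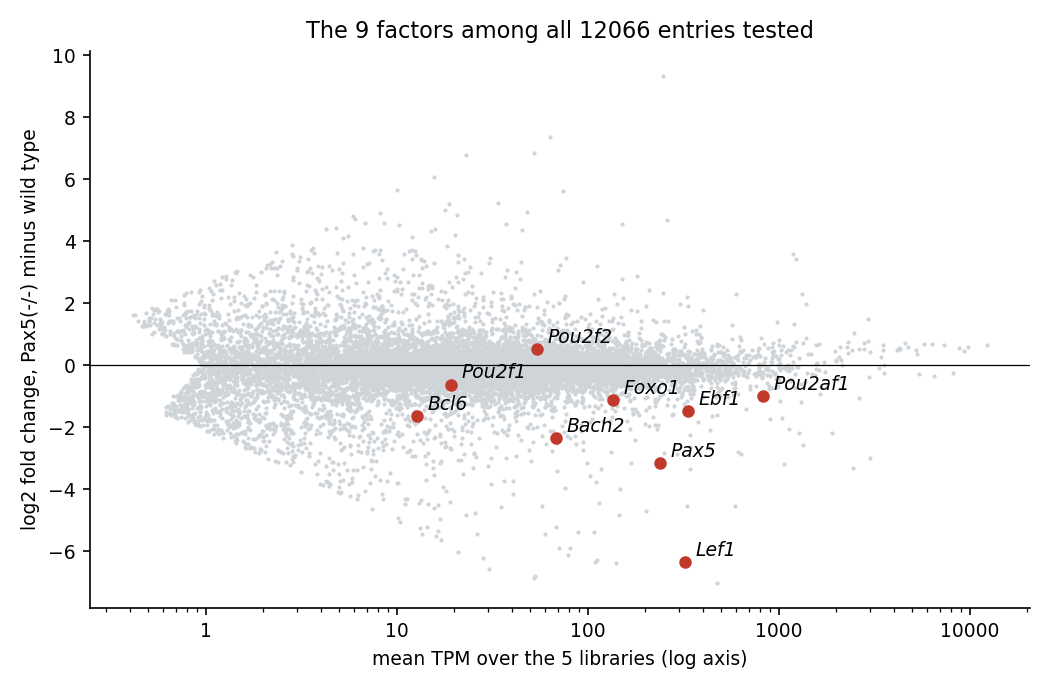
Log2 fold change, Pax5(-/-) minus wild type, against the mean TPM over the 5 libraries (log axis), with each of the 12066 entries tested in grey and the 9 factors in red. Lef1 stands at the lower edge of the cloud at a high mean level, whereas Pou2f1 and Pou2f2 lie within it.

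By level, the 9 factors fell into the order Pou2af1, Lef1, Ebf1, Pax5, Foxo1, Bach2, Pou2f2, Pou2f1 and Bcl6 in wild-type cells, with means of 1033 ± 45.1, 535 ± 57.2, 452 ± 64.5, 373 ± 26.8, 174 ± 33.9, 101 ± 17.7, 46.3 ± 1.72, 22.6 ± 1.04 and 17.8 ± 4.84 TPM (SD, n = 3). The ranges of Lef1 and Ebf1 overlapped between libraries, as did those of Ebf1 and Pax5, and all other neighbours were separated. Within each wild-type library, however, Lef1 was above Ebf1, by 1.27-, 1.24- and 1.07-fold, and Ebf1 above Pax5, by 1.10-, 1.24- and 1.27-fold. In Pax5(-/-) cells the order was Pou2af1, Ebf1, Foxo1, Pou2f2, Pax5, Bach2, Pou2f1, Lef1 and Bcl6, and here Lef1 and Bcl6 overlapped. Lef1 moved from the second to the eighth place. The summed TPM of the 9 factors was 2577 to 2857 in wild-type and 862 and 952 in Pax5(-/-) libraries.

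The Meox2-cre libraries give the same factors in pro-B cells of young mice that served the study as controls. Their tables were made with another aligner and genome build, so the levels are set beside those of the mm9 tables without a test. The means were 976 ± 36.8 TPM for Pou2af1, 534 ± 29.3 for Lef1, 389 ± 11.5 for Pax5, 346 ± 11.3 for Ebf1, 197 ± 9.88 for Foxo1, 137 ± 5.97 for Bach2, 34.8 ± 2.93 for Pou2f2, 25.7 ± 1.44 for Pou2f1 and 16.8 ± 2.12 for Bcl6 (SD, n = 3). No neighbours in this order overlapped between libraries. Pax5 stood above Ebf1 here, at 376 to 397 against 333 to 353 TPM. The coefficient of variation was between 2.96% for Pax5 and 12.6% for Bcl6, and Bcl6 was the most variable of the 9 in wild-type cells too, at 27.2%. The sum of the 9 factors was 2593 to 2741 TPM.

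Genes with the most similar pattern were sought among 9756 entries, as those with the smallest root mean square difference of log2(TPM + 0.5) over the 5 mm9 libraries after each gene was centred on its mean. For Pax5 these were Scn4a (0.0729), Lphn2 (0.0917) and Ptgr1 (0.103). Ptgr1, the most abundant of them, was measured at 261, 238 and 284 TPM in wild-type and at 29.7 and 28.2 TPM in Pax5(-/-) libraries. For Lef1 the nearest entry was Tmem132e, at the largest distance of all (0.254), with 128, 149 and 114 TPM in wild-type and 1.37 and 1.34 TPM in Pax5(-/-) libraries. The nearest entries of the other factors were Glul for Ebf1 (0.0435), Zfp831 for Foxo1 (0.0224), Rpia for Pou2af1 (0.0311), Helb for Pou2f1 (0.0102), Adck4 for Pou2f2 (0.0147), Dnajb13 for Bach2 (0.0747) and Optn for Bcl6 (0.102). With 5 libraries in 2 groups, such likeness mostly restates an equal difference between the genotypes.

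The paralogues of the 9 factors were examined next. Of 20 relatives listed, 9 passed the filter of a mean above 1 TPM in a genotype, and of these 2 were lower, 2 were higher and 5 did not pass the test, with a median log2 fold change of -0.05. The counts of this and the following lists stand against 21.5% lower and 15.6% higher and a median of -0.12 over all entries tested. No relative of Ebf1 and, besides Pou2f1 and Pou2f2, no Pou2 relative passed the filter. Pax2 was the highest rise and was measured at 1.17 ± 0.439 TPM (SD, n = 3) in wild-type and 4.03 ± 0.0887 TPM (SD, n = 2) in Pax5(-/-) cells (log2 fold change 1.48, SE 0.30, adjusted p = 0.0078 from limma), far below the Pax5 level of wild-type cells. Without the first or the second Pax5(-/-) library its adjusted p-value was 0.068 and 0.081.

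Of the relatives of Lef1 tested on all 5 libraries, 1 rose, 1 fell by much less than Lef1 and 1 did not pass the test. Tcf7 (TCF-1) was measured at 23.9, 44.9 and 25.5 TPM in wild-type and at 57.9 and 56.9 TPM in Pax5(-/-) libraries (log2 fold change 0.92, SE 0.26, adjusted p = 0.027 from limma). The Tcf7 call was lost without the first or the second Pax5(-/-) library (adjusted p = 0.18 and 0.19) and without the first or the third wild-type library (0.057 and 0.072). Tcf7l2 was lower, with 25.9, 38.4 and 31.9 against 15.5 and 13.2 TPM (log2 fold change -1.12, SE 0.19, adjusted p = 0.0036), with an adjusted p-value of 0.075 without the second Pax5(-/-) library. Tcf7l1 did not pass the test, at 14.9 ± 5.19 against 23.4 ± 1.32 TPM (log2 fold change 0.69, 95% CI 0.08 to 1.30, adjusted p = 0.073). Lef1 was thus the most abundant of these HMG box factors in each wild-type library and the least abundant in each Pax5(-/-) library.

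Bcl6b, the close relative of Bcl6, was lower, at 3.58, 6.96 and 6.22 TPM in wild-type and 0.303 and 0.239 TPM in Pax5(-/-) libraries (log2 fold change -2.94, SE 0.32, adjusted p = 4.7e-04 from limma). Foxo3 was measured at 56.0 ± 10.9 and 53.6 ± 5.12 TPM (log2 fold change -0.05, 95% CI -0.44 to 0.34) and Foxo4 at 37.7 ± 7.27 and 29.7 ± 4.72 TPM (-0.33, 95% CI -0.78 to 0.12), and neither passed the test that Foxo1 passed. Bach1 was measured at 33.6 ± 2.22 and 26.8 ± 4.26 TPM (-0.33, 95% CI -0.67 to 0.01) and did not pass it either. In the Pax5(-/-) libraries Bach1 was thereby the more abundant of the Bach factors, while Bach2 was so in wild-type libraries.

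Cofactors of the 9 factors were also listed, namely Groucho proteins, which Pax5 and Lef1 bind, beta-catenin and its coactivators, corepressors that Bcl6 binds, and small Maf partners of Bach2. Of 18 listed, 16 were tested, 1 was lower, 2 were higher and 13 did not pass the test, with a median log2 fold change of -0.10. Aes, a short Groucho protein, was lower at 713 ± 177 against 415 ± 20.5 TPM (log2 fold change -0.75, SE 0.18, adjusted p = 0.016 from limma), and this call is lost after rescaling by median ratios. Bcl9l, a coactivator of beta-catenin, was higher at 71.7 ± 19.0 against 123 ± 18.2 TPM (0.80, SE 0.21, adjusted p = 0.020), and the small Maf gene Maff was higher at 2.23 ± 0.336 against 5.28 ± 0.257 TPM (1.09, SE 0.23, adjusted p = 0.0084). None of the calls on these cofactors was kept when either Pax5(-/-) library was left out.

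Genes known from earlier work as targets of one or more of the 9 factors were mostly lower in Pax5(-/-) cells. Of 23 listed, 22 were tested, 18 were lower, 2 were higher and 2 did not pass the test, with a median log2 fold change of -2.39. The list was not split into activated and repressed targets, so these values do not measure a loss of activation. Cd72, a surface receptor of B cells, was lower at 182 ± 28.5 against 1.69 ± 0.158 TPM (log2 fold change -6.37, SE 0.16, adjusted p = 1.4e-06 from limma). Ccnd2, encoding cyclin D2, was higher at 86.9 ± 13.1 against 294 ± 18.8 TPM (1.76, SE 0.14, adjusted p = 1.0e-04). Axin2, a widely used target of Lef1 and beta-catenin, was low throughout, averaged 3.23 ± 1.85 TPM in wild-type cells and was listed at 0 in both Pax5(-/-) libraries.

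Of 20 other transcription factors of the B lineage, 19 were tested, 11 were lower, 3 were higher and 5 did not pass the test, with a median log2 fold change of -0.69. Ikzf3 (Aiolos) was lower at 22.0 ± 9.96 against 0.517 ± 0.137 TPM (log2 fold change -4.36, SE 0.39, adjusted p = 1.9e-04 from limma) and Irf4 at 115 ± 20.9 against 22.9 ± 4.78 TPM (-2.30, SE 0.18, adjusted p = 1.1e-04). Spi1 (PU.1), which is used in myeloid and B cells, was higher at 175 ± 33.4 against 348 ± 0.884 TPM (1.01, SE 0.16, adjusted p = 0.0026), and Mef2c was higher at 63.5 ± 3.02 against 84.3 ± 0.574 TPM (0.41, SE 0.10, adjusted p = 0.017). Without the second Pax5(-/-) library the call was lost for Spi1 (adjusted p = 0.054, against 0.047 without the first), and for Mef2c it was lost without either (0.12 in both cases). Lef1 fell further than any gene of this list, and Pou2f2 rose within the range of its 3 higher genes.

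**Figure D5:**
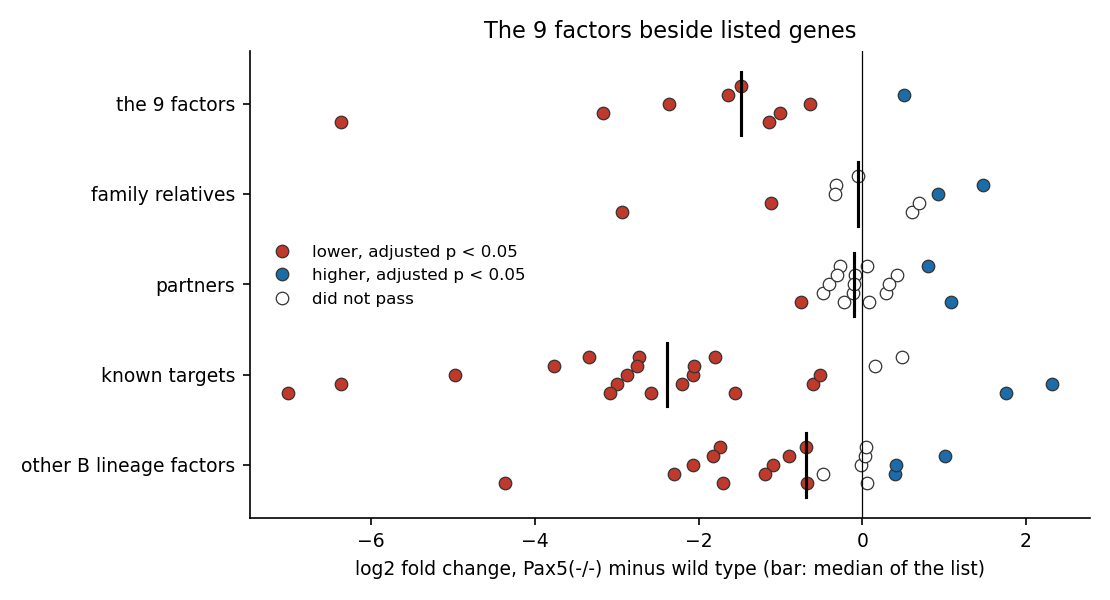
Log2 fold change, Pax5(-/-) minus wild type, of the 9 factors and of the tested genes of each list, with filled points for genes past the test and black bars for the list medians. The medians are -1.48 for the 9 factors, -0.05 for relatives, -0.10 for cofactors (labelled partners), -2.39 for known targets and -0.69 for other B lineage factors.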

How the data were processed

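RNA-seq of sorted pro-B cells was examined, with 3 wild-type, 2 Pax5(-/-) and 3 Meox2-cre libraries, grouped by the labels. The deposited values are TPM, computed by the authors from read numbers per gene and gene length. For the wild-type and Pax5(-/-) libraries, the authors aligned reads to mm9 with TopHat 1.4.1a, and for the Meox2-cre libraries to mm10 with STAR 2.4.2a. Both were counted with featureCounts 1.5.0 (refGene annotations). As TPM hold no counts, depth is unknown, and no interval or floor from counts is given.

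The genotypes of the mm9 tables were compared in limma 3.58.1 (R 4.3.3; lmFit, eBayes with trend, no covariates) on log2(TPM + 0.5), for entries with a mean above 1 TPM in a genotype, with Benjamini-Hochberg adjustment over all 12066. Fold changes are on this scale and understate changes of low genes. On simulated data for this comparison, 196 of 200 entries changed 6-fold were called, and 6 others. The changed entries were drawn from well expressed ones, so this does not measure how smaller changes or changes of low genes are called. Its noise was drawn independently for each entry and library, so effects shared by the entries of a library are not covered either. The 9 genes and the lists were chosen with earlier results of these data known. All 9 are named, and of each list the 2 largest falls and rises past the test and every relative above 5 TPM. Axin2, the single markers of other cells, Cd247, 5730488B01Rik and Bach2os were named after their values were seen. Some listed genes that this rule picks are not reported here. Alternatives were pseudocounts of 0.1 and 1, eBayes robust or without trend, a filter at 5 TPM or none, median ratios, quantile normalization, immunoglobulin and T cell receptor entries left out, other thresholds, the limma treat test, ratios of means and leaving out each library. Gene positions are from GENCODE (mm9) and promoter windows from RefSeq (GRCm38.p6), searched in Python 3.11.15. ChIP-seq samples were not analysed here.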

Additional observations from a re-analysis of the deposited data

How the results depend on the processing

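Under the 14 alternative fits, each of the 9 factors kept its direction, and Pax5, Ebf1, Foxo1, Pou2af1, Lef1 and Bach2 kept an adjusted p-value below 0.05 from limma. Leaving out 1 library gave 6 to 8 factors lower and 0 to 1 higher at that threshold. Pou2f1 and Pou2f2 lost it without either Pax5(-/-) library and Bcl6 without the second, where a lone library is assumed to vary like the others. A 2-fold limit called 7 factors lower. Pou2af1, at 2.003-fold, was only just among these, and after median ratios its log2 fold change of -0.89 fell short of that limit. An adjusted p-value below 0.01 left 0 higher, Pou2f2 having an adjusted p of 0.015 from limma. Of the relatives, 4 were lower without a filter, 1 to 3 when 1 library was left out, and 1 was higher without trend, without a filter or with a filter at 5 TPM, and 0 to 3 when 1 library was left out. Of the cofactors, 2 were lower with robust eBayes or a filter at 5 TPM, 0 after median ratios and 0 to 4 when 1 library was left out, and 0 to 2 were higher when 1 was left out. Of the other B lineage factors, 0 to 3 were higher when 1 library was left out. Of the known targets, 15 to 18 were lower in the fits that kept both Pax5(-/-) libraries. Fewer known targets and fewer of the other B lineage factors were lower when either Pax5(-/-) library was left out. The cause of these shifts was not tested. With immunoglobulin and T cell receptor entries left out, the mean levels in Meox2-cre cells moved by less than 1 SD. Leaving out 1 of 3 libraries cannot move a mean by 1 SD, so no conclusion is drawn from those alternatives. The Pou2f2 to Pou2f1 difference stayed between 2.49 and 2.62.

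Over all entries, the counts lower and higher at an adjusted p-value below 0.05 were 2596 and 1885, and 1348 and 1088 at 0.01. They were 990 and 799 without the first Pax5(-/-) library and 825 and 704 without the second. The 3-fold call gave 380 lower and 327 higher entries, against 753 and 630 at 2-fold and 153 and 118 with the limma treat test. No paired analysis was possible because nothing in the labels links a wild-type to a Pax5(-/-) library.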
